A study of Mus musculus with 2 samples.

Results

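Trp53 and 9 genes of its response were read in the teratoma libraries, chosen by gene symbol with earlier results of these data known. They are Trp53 itself, its inhibitors Mdm2 and Mdm4, and the response genes Cdkn1a, Ccng1, Bax, Pmaip1, Bbc3, Rps27l and Ddit4. All 10 had a row among the 45777 genes of the table and reads in both libraries. RNA-seq was available for 1 library of an E14 teratoma and 1 library of an E14-Sox2TA/WT teratoma, E14 being a mouse ESC line. In E14-Sox2TA/WT cells the T258A change was made on 1 allele of Sox2 with CRISPR/Cas9, and the line was expanded from a single cell clone. Cells were injected in Matrigel under the skin of BALB/c-nu mice, nude mice that lack T cells but keep other host cells, and teratomas were taken 14 days after inoculation. Each group had 3 inoculated mice, but it is not stated whether a library holds 1 teratoma or several, and the labels' protocol speaks of an ESC line although they give the tissue as teratoma.

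The p53 protein, encoded by Trp53, is a transcription factor that is kept scarce by Mdm2, which marks it for degradation, and held inactive by the related protein Mdm4. After DNA damage or other stress it is released from both and switches on genes that stop the cell cycle, trigger apoptosis or adjust metabolism, and it also switches on Mdm2, which closes a feedback loop. In ESCs, p53 also favors differentiation and the removal of damaged cells. Its activity is set largely at the protein level, which RNA-seq does not measure.

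A p53 site is built from repeats of a short consensus, called here the p53 decamer, which was searched in RefSeq promoter windows running from 250 bases before to 50 bases after each annotated start (GRCm38.p6). Its consensus reads the same on both strands, so both were covered. Windows were found for 9 of the 10 genes, with none for Pmaip1. The decamer occurred in 6 of these 9 genes (Trp53, Mdm2, Cdkn1a, Bax, Ccng1 and Rps27l) and in no window of Mdm4, Bbc3 or Ddit4. Over all 27025 genes with a window, 9.55% held it, as did 8.01% of the 8784 with TPM ≥ 10 in either library and 8.36% of all windows counted singly. A match is a description of these letters and not a site, and most intronic or more distant sequence lies outside the windows. The stretches before the start that overlap no annotated exon of the gene are shown for Trp53, its feedback inhibitor Mdm2, those targets with a window whose TPM was more than 2-fold higher, and Ddit4, which was the only gene with a lower TPM. They are written 5′ to 3′ on the strand of the gene with the decamer in capitals.
Trp53: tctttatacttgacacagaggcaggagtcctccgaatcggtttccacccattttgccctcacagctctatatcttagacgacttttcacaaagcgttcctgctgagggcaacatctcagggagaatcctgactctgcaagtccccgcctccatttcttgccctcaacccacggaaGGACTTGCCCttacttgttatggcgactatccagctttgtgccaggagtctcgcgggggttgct
Mdm2: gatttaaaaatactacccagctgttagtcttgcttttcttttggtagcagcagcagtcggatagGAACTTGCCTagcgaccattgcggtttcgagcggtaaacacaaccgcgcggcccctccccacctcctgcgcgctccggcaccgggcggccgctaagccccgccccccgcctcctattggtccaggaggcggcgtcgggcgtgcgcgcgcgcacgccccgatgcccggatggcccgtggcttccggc
Cdkn1a: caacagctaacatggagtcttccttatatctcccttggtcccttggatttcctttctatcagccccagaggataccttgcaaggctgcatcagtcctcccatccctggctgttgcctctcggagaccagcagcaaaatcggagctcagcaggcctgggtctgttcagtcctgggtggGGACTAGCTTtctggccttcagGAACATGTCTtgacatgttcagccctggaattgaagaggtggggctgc
Ccng1: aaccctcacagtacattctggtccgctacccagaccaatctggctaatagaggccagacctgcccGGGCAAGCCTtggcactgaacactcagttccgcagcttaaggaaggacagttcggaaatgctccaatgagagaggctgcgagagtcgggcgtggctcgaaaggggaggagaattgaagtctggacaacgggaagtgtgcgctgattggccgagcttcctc
Rps27l: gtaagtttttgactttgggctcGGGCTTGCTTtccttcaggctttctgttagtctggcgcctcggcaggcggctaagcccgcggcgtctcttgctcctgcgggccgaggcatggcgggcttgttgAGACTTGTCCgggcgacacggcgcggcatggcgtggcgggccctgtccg
Ddit4: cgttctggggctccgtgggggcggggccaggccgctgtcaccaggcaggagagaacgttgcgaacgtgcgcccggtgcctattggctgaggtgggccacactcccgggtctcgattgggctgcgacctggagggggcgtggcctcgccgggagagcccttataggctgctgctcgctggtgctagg
These lie at chr11:69580109-69580347 (plus strand) for Trp53, chr10:117710759-117711008 (minus) for Mdm2, chr17:29090729-29090975 (plus) for Cdkn1a, chr11:40755312-40755536 (minus) for Ccng1, chr9:66946181-66946354 (plus) for Rps27l, where the downstream one of 2 windows held the matches and the stretch is intronic to transcripts from the upstream start, and chr10:59951835-59952020 (minus) for Ddit4. In Cdkn1a, the upstream one of 2 windows held the matches, and the downstream window held none. They began 73 and 51 bases before the upstream start. This is close enough to form a pair with a spacer of at most 13 bases, an arrangement found in 20 of the 27025 genes. The matches began 75 bases before the start in Trp53, 186 in Mdm2, 185 in Ccng1 and 201 in Bax, and 210 and 107 before the downstream start in Rps27l.

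The table gave read counts, FPKM and TPM, the last being reads scaled by transcript length and then to a fixed sum in each library, so that genes can be compared per length. Reads on genes numbered 50529171 for E14 and 49030281 for E14-Sox2TA/WT, the order in which paired values are given throughout. Since there is 1 library per group, no difference has a replicate check and no p-value was computed. The 95% intervals of folds and ratios are Clopper-Pearson limits from the counts, cover counting error only and compare these libraries, not the genotypes. A gene was counted as past the threshold at a TPM fold above 2 with TPM ≥ 10 in either library, and log2 ratios are on the scale of log2 TPM with 1 added. The mitochondrial share of TPM was 5.17% and 9.70%. Sox2 had a TPM of 246 and 130, which is no check of a point change.

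The markers of several cell types differed between the libraries. Neuron markers had a summed TPM of 2719 and 426, with 0 of 10 genes higher and Tubb3 at 1722 and 170. Pluripotent cell markers had a sum of 84.3 and 1979, with all 10 higher and Dppa5a at 29.1 and 1144. Macrophage markers had a sum of 980 and 1669, with all 10 higher and Lyz2 at 457 and 943. Squamous markers were led by Krt13, at 14.9 and 197. The sums were 401 and 217 for skeletal muscle (Mylpf at 185 and 112), 69.5 and 117 for gut epithelium (Epcam at 64.6 and 72.4), 80.8 and 108 for chondrocytes (Col2a1 at 58.0 and 74.8), 139 and 175 for endothelium (Egfl7 at 19.3 and 43.6) and 391 and 392 for erythroid cells (Hbb-bs at 141 and 162). Matn1, Cdx1, Cdx2, Fabp2, Ivl and Epb42 had 0 reads with E14, and none of the markers had 0 with E14-Sox2TA/WT. The part of these cell types in the values of Trp53 and its response genes was not tested.

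Of the 10 genes, 9 had a higher TPM with E14-Sox2TA/WT than with E14 and 5 passed the threshold as higher (Trp53, Cdkn1a, Ccng1, Pmaip1 and Rps27l). Over the 11578 genes tested, 10.8% were higher past that threshold. None of the 10 was past it as lower, against 18.7% of all genes. These shares also apply beside the counts of the lists given below. The median log2 ratio of the 10 genes was 0.85, whereas that of all tested genes was -0.18. The order-statistic interval of the former, 0.31 to 1.38, describes the spread over these 10 chosen genes, which are not replicates. Of the tested genes, 41.0% had a higher TPM in the E14-Sox2TA/WT library. In bulk tissue, fewer cells of a type and less RNA per cell cannot be told apart. Pmaip1 passed the filter only through the E14-Sox2TA/WT library, where it was high. With TPM ≥ 10 required in both libraries, 4 of the 9 remaining genes were past the threshold, against 5.34% of 8963 genes.

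**Figure D1:**
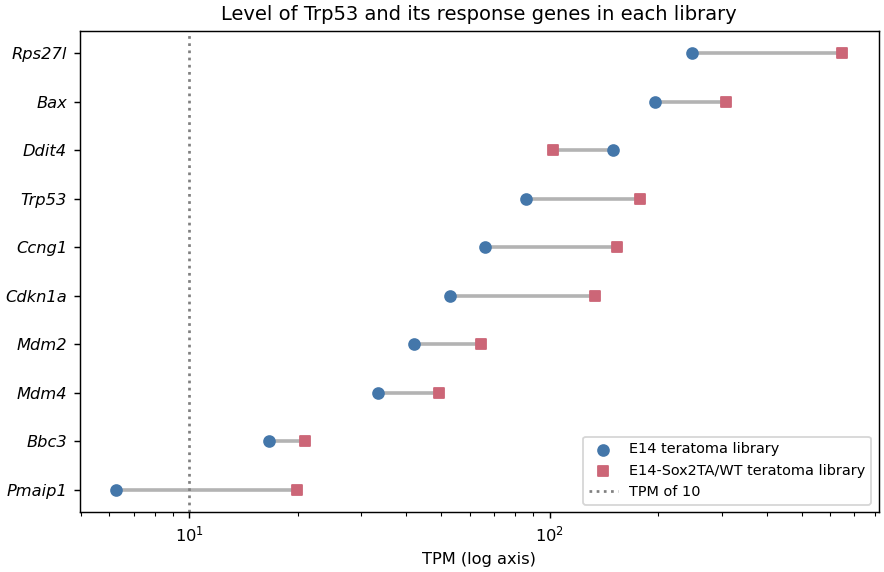
TPM of each gene (log axis), ordered by level in the E14 library, with a blue circle for the E14 library and a red square for the E14-Sox2TA/WT library, 1 library each, joined by a grey line; the dotted line marks a TPM of 10. Ddit4, at 149 and 102, is the only gene whose square lies to the left of its circle, and Pmaip1, at 6.26 and 19.8, is the only one that crosses the dotted line.

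**Figure D2:**
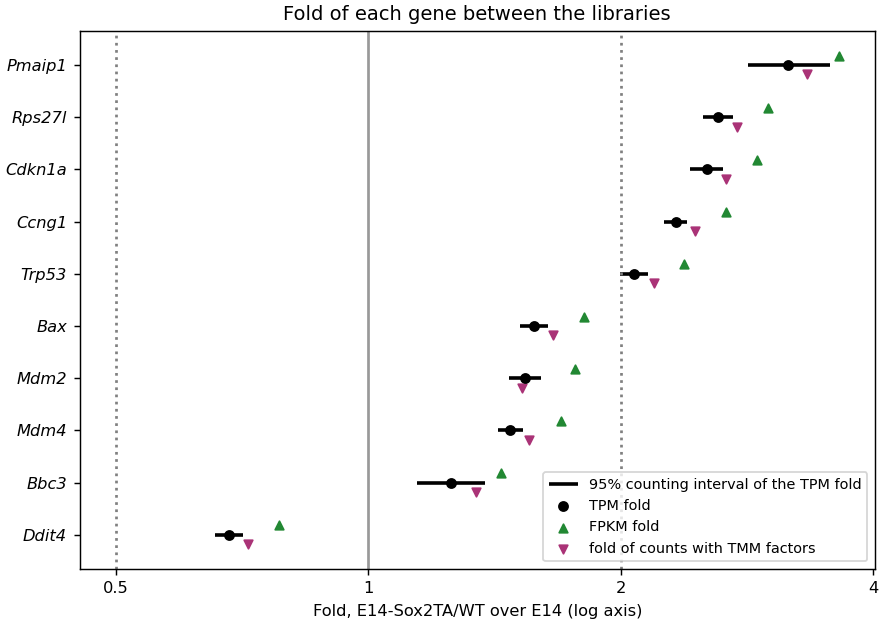
Fold of each gene, E14-Sox2TA/WT over E14 (log axis), as TPM (black point, with a line for its 95% counting interval), FPKM (green triangle) and counts scaled with TMM factors (purple triangle); dotted lines mark a 2-fold difference either way. The TPM folds run from 3.17 for Pmaip1 down to Ddit4, left of 1, and the interval of Trp53, 1.99 to 2.15, includes the threshold.

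Trp53 had 3803 reads in the E14 library, or a TPM of 85.8, against 8838 reads and a TPM of 178 in that of E14-Sox2TA/WT, a fold of 2.07 (1.99 to 2.15). The gene lies at chr11:69580348-69591873, and all gene positions given are RefSeq spans on GRCm38. The 2-fold threshold thus falls inside its counting interval, and 9.66% of all tested genes had a larger ratio. The p53 relatives, which bind similar sites, did not all move with it. Trp63, needed for squamous epithelium, was at a TPM of 6.96 and 6.43, a ratio of 0.924 (0.834 to 1.02) whose interval includes no difference. Trp73 was at 1.89 and 3.77 (2.0-fold, 1.69 to 2.36), and neither relative reached a TPM of 10. Wrap53, which overlaps the start of Trp53 on the opposite strand, was at 34.5 and 34.6 (1.0-fold, 0.935 to 1.07). The sources do not say if reads were counted by strand, so those of these overlapping genes may not be told apart. The pseudogene Trp53-ps had 0 reads in the former, which allows up to 3, and 5 in the latter, and it shares 3.64% of the 50-nt stretches of the Trp53 transcripts.

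The 2 inhibitors were higher by less than Trp53. Mdm2, the ubiquitin ligase (chr10:117688875-117710758), had 3352 and 5426 reads and a TPM of 41.9 and 64.5 (1.54-fold, 1.47 to 1.61). Mdm4, which covers the activation domain of p53 (chr1:132986105-133030587), had 5662 and 9342 reads and a TPM of 33.5 and 49.4 (1.48-fold, 1.43 to 1.53). Neither passed the 2-fold threshold, and at a fold above 1.5 Mdm2 passed and Mdm4 did not. Relative to Trp53 within the same library, Mdm2 stood at 0.488 of the Trp53 TPM with E14 (0.466 to 0.512) and at 0.362 with E14-Sox2TA/WT (0.350 to 0.375). Mdm4 stood at 0.390 and 0.278 of Trp53. The balance between the inhibitors differed little, with an Mdm4 to Mdm2 ratio of 0.798 and 0.767 and intervals that overlap. Mdm4 has the longest transcript of the 10, at 7820 nt, and the median log2 ratio was -0.57 for the tested genes nearest to it in length. The pseudogene Mdm4-ps, which shares 7.30% of the 50-nt stretches of Mdm4, had 5 and 4 reads. Centred on genes of like length, Mdm4 stood at 1.12 on the log2 scale, past the threshold.

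Other regulators of p53 went both ways. Among 14 activators and partners with TPM ≥ 1 in either library, 6 were higher and the median log2 ratio was -0.19. Of 12 tested, 1 was past the threshold in each direction, against 10.8% higher and 18.7% lower over all tested genes. Centred on genes of like length, that median was 0.34. Cdkn2a, whose Arf product blocks Mdm2, was higher, with a TPM of 3.79 and 33.3 (8.79-fold, 7.0 to 11.2), although gene-level values do not separate Arf from its other product, the CDK inhibitor Ink4a. It passed the filter only through the E14-Sox2TA/WT library. Hipk2, a kinase that phosphorylates p53, was 4.44-fold lower, at 37.4 and 8.41. Rpl5, a ribosomal protein that can bind Mdm2, was the most abundant of the list, at 1677 and 1811. Among 10 inhibitors, Mdm2 and Mdm4 included, 5 were higher, the median was -0.00 and its sign changed with the scaling (0.19 on FPKM), and the deacetylase gene Sirt1 was the only one of 9 past the threshold, at 12.4 and 29.1 (2.35-fold). Trim28, a partner of Mdm2, was at 213 and 351, and the ubiquitin ligase gene Huwe1 at 86.6 and 44.9.

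The arrest genes Cdkn1a and Ccng1 were both higher by more than 2-fold, with the whole interval above it. Cdkn1a (chr17:29090979-29100722) encodes p21, which blocks cyclin-dependent kinases and is the classical p53 target. It had 2437 and 6900 reads and a TPM of 52.9 and 134 (2.53-fold, 2.42 to 2.65). Ccng1 (chr11:40748552-40755309) encodes cyclin G1, a target that feeds back on Mdm2 through a phosphatase. It had 5543 and 14390 reads and a TPM of 66.1 and 154 (2.32-fold, 2.25 to 2.40). Only 6.65% of tested genes had a larger ratio than Cdkn1a, and 7.80% a larger one than Ccng1. Cdkn1a shares 8.46% of its 50-nt stretches with antisense transcripts, so its value may depend on how strand was handled. Ccng2, a relative of Ccng1 that was named after its values were seen, was lower, at 51.7 and 34.9.

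CDK inhibitors did not move as a family. Of 7, all tested, 3 were past the threshold as higher (Cdkn1a, Cdkn2a and Cdkn2b) and 3 as lower (Cdkn1c, Cdkn2c and Cdkn2d). The median log2 ratio of this list was -0.67. Over all tested genes, 10.8% were past the threshold as higher and 18.7% as lower. Cdkn1c, an imprinted inhibitor of the p21 family, was at 149 and 25.2 (5.90-fold lower). Cdkn2b was at 3.62 and 16.6 (4.59-fold higher), Cdkn2c at 17.5 and 6.92, and Cdkn2d at 63.0 and 30.6. Cdkn2a and Cdkn2b passed the filter only through the E14-Sox2TA/WT library, and Cdkn2c only through that of E14. The last member, Cdkn1b, was at 75.3 and 47.0. The TPM of Cdkn1a was 0.356 of that of Cdkn1c with E14 but 5.31 times it with E14-Sox2TA/WT.

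In the wider list of arrest targets, 10 of 12 genes were higher and the median log2 ratio was 1.13. Against 10.8% of all tested genes, 6 of 11 tested genes of this list were past the threshold as higher. Besides Cdkn1a and Ccng1 these were Gtse1, Sfn, Phlda3 and Gadd45a, of which the last pair was named after the values were seen. Gtse1, a microtubule-binding protein that binds p53 and lowers its level, was at a TPM of 24.9 and 102 (4.09-fold). Sfn (stratifin), which is also abundant in squamous epithelium, was at 15.1 and 47.2 (3.13-fold). Phlda3, which restrains Akt, was at 24.6 and 62.5 (2.54-fold) and the DNA damage response gene Gadd45a at 15.5 and 34.2 (2.2-fold). Rprm, an arrest gene named after its values were seen, was the only one past the threshold as lower, at 69.9 and 23.7. Squamous markers had a summed TPM of 103 and 663, and their part in the values of Sfn was not tested.

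The apoptosis genes were all higher but by different amounts. Bax, which makes pores in the mitochondrial membrane (chr7:45461695-45466903), had 4091 and 7195 reads and a TPM of 196 and 308 (1.58-fold, 1.52 to 1.64). Pmaip1 (chr18:66458604-66465558) encodes Noxa, a BH3-only protein that neutralizes Mcl1. It had 400 and 1414 reads and a TPM of 6.26 and 19.8, the highest fold of the 10 genes at 3.17 (2.83 to 3.55). Bbc3 (chr7:16308398-16318334) encodes Puma, a BH3-only protein that binds all the survival proteins of the family. It had 774 and 1104 reads and a TPM of 16.6 and 20.9, the smallest increase at 1.25 (1.14 to 1.38). In the E14 library, Bbc3 stood at 2.66 times Pmaip1 (2.35 to 3.01), whereas in the E14-Sox2TA/WT library the interval of their ratio, 0.972 to 1.14, includes equal levels. Bax shares 8.51% of its 50-nt stretches with 1 other annotated gene, whereas Pmaip1, Bbc3, Ccng1 and Ddit4 share none.

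Among 14 apoptosis targets, Bax, Pmaip1 and Bbc3 included, all were higher and the median log2 ratio was 0.60. Over those with TPM ≥ 10 in both libraries the median was 0.36. For Fas, named after its values were seen, the interval of the fold, 0.885 to 1.22, includes no difference. Of 12 tested genes in this list, 4 passed the threshold, against 10.8% of all tested genes. Eda2r, a receptor of the tumor necrosis factor family, was at a TPM of 4.04 and 13.5 (3.34-fold). Like Pmaip1, it passed the filter only through the E14-Sox2TA/WT library. Trp53inp1, a stress protein that promotes p53 phosphorylation, was at 21.6 and 57.7 (2.67-fold), and Perp, a target that also builds desmosomes in epithelia, at 32.6 and 68.1 (2.09-fold). Pmaip1 was the other gene past the threshold.

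Within the BCL-2 family, the balance of Bax to several survival genes differed between the libraries. Bcl2l1, which encodes Bcl-xL, was at a TPM of 112 and 45.5, 2.46-fold lower. Bcl2 was at 8.66 and 4.37, below a TPM of 10 in both libraries and so not tested. Mcl1, the survival protein that Noxa binds, was instead at 96.6 and 154, 1.59-fold higher. The ratio of Bax to Bcl2l1 was therefore 1.75 and 6.78, and that of Bax to Bcl2 was 22.6 and 70.5. The ratio of Bax to Mcl1 was 2.03 and 2.0. Of 7 survival genes, 4 were higher and the median log2 ratio was 0.67. The median was -0.07 over those with TPM ≥ 10 in either library and -0.80 over those with it in both. The higher genes were Mcl1 and Bcl2a1a, Bcl2a1b and Bcl2a1d, near-identical copies that can split reads between them. Of these copies Bcl2a1b, at 3.15 and 16.2, was past the threshold. It passed the filter only through the E14-Sox2TA/WT library. Among the 3 effectors, with a median of 0.06, Bak1 was at 63.8 and 45.8 and Bok at 37.8 and 39.4. Of 8 BH3-only genes 6 were higher, with a median of 0.60, and Pmaip1 was the only one of 6 tested past the threshold. Bad was at 66.8 and 43.7, Bmf 1.99-fold higher and Bid at 15.2 and 28.7.

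**Figure D3:**
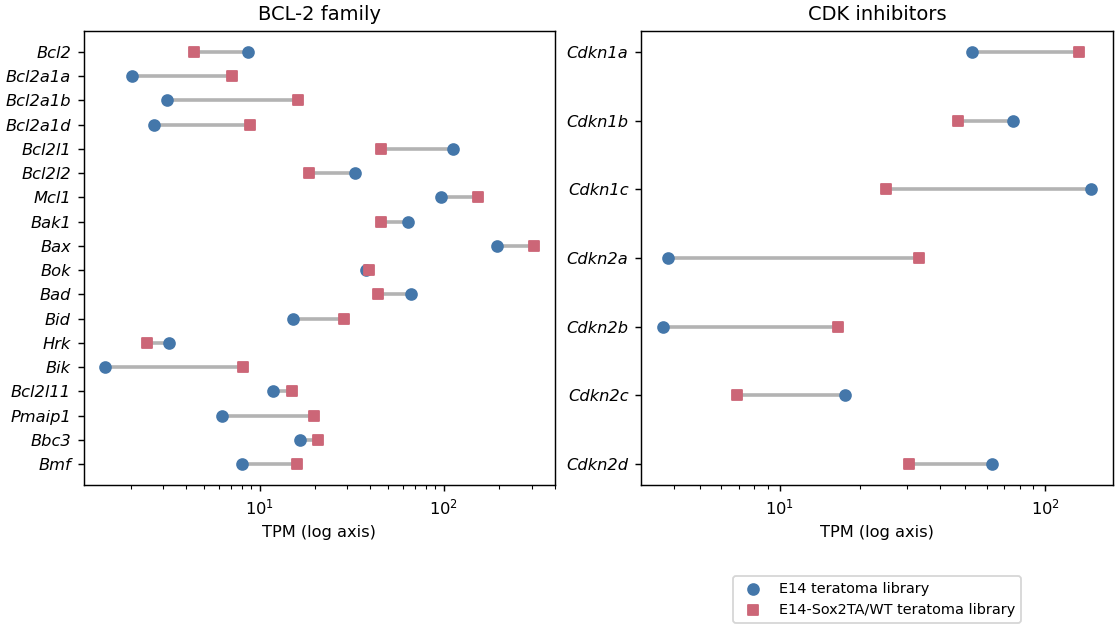
TPM (log axis) of BCL-2 family genes (left) and CDK inhibitors (right), with a blue circle for the E14 library and a red square for the E14-Sox2TA/WT library, joined by a grey line. Bcl2l1 shifts left, from 112 to 45.5, and Mcl1 right, from 96.6 to 154, while among CDK inhibitors Cdkn1c shifts left and Cdkn1a right.

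Rps27l and Ddit4, both stress targets, went in opposite directions. Rps27l (chr9:66944624-66949522) encodes a ribosomal protein close to Rps27 that p53 induces and that affects Mdm2. It had 3090 and 9023 reads and a TPM of 248 and 648 (2.61-fold, 2.50 to 2.72). Its paralog Rps27 was at 2547 and 2897 (1.14-fold), so that the ratio of Rps27l to Rps27 was 0.0976 and 0.224. Of 32 genes of the small ribosomal subunit, 22 were higher, the median log2 ratio was 0.20, and 0 were past the threshold. Rps9 was at 6649 and 3887 and Rps19 at 1987 and 3261. The transcript of Rps27l, at 575 nt, is the shortest of the 10, and the median log2 ratio was 0.32 for genes of like length. Centred on these, Rps27l stood at 1.06 on the log2 scale, still past the threshold, while the median of the small subunit genes became -0.08. Rps27l shares 11.2% of its 50-nt stretches with 4 other annotated genes, and a related gene, Rps27rt, was at 28.6 and 59.7.

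Ddit4 (chr10:59949675-59951770) encodes an inhibitor of mTORC1 that is switched on by p53 and also by hypoxia, ATF4 and glucocorticoids. It had 6055 and 4611 reads and a TPM of 149 and 102, 1.47-fold lower (1.41 to 1.52). Ddit4l, a related gene named after its values were seen, went the other way, at 4.68 and 19.7 (4.22-fold, 3.73 to 4.79). Of 12 hypoxia genes, 5 were higher, the median log2 ratio was -0.11, and 1 of 10 tested was past the threshold in each direction, namely Ndrg1 at 13.7 and 33.7 and Vegfa at 103 and 47.1. The median turned positive on FPKM (0.08), with library totals (0.09) and relative to all genes (0.07) or to the chromosome (0.24). Pgk1 was the most abundant, at 551 and 584. Of 10 ATF4 stress genes, 7 were higher with a median of 0.91, and 3 of 8 tested were past the threshold as higher and 1 as lower. The higher genes were Nupr1 at 17.1 and 55.8, Atf3 at 5.13 and 11.8 and Cebpb at 5.26 and 10.7, and the lower one was Vldlr at 16.5 and 7.99, while Atf4 itself was at 155 and 292. Of 6 glucocorticoid genes, 3 were higher with a median of 0.17. In that list, Klf9 at 8.58 and 22.7 and Sgk1 at 19.0 and 46.7 were past the threshold as higher, and of the 5 tested Per1, at 12.1 and 5.84, was past it as lower. Cebpb, Vldlr and Per1 were named after their values were seen. Atf3, Cebpb and Klf9 passed the filter only through the E14-Sox2TA/WT library, and Vldlr and Per1 only through that of E14. Over all tested genes, 10.8% were past the threshold as higher and 18.7% as lower.

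**Figure D4:**
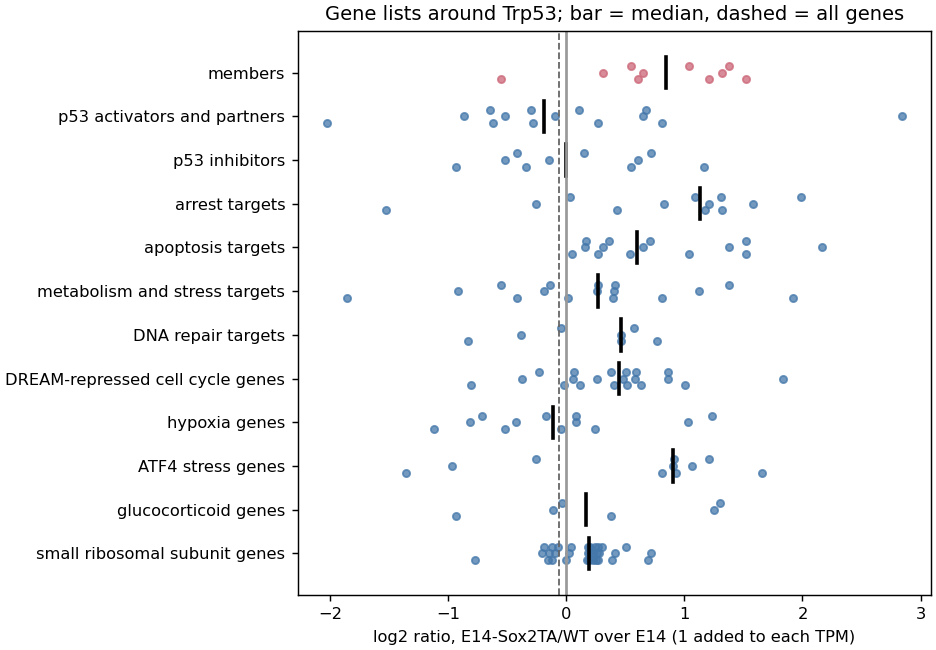
Log2 TPM ratio, with 1 added to each TPM, of every gene with TPM ≥ 1 in either library, for the 10 genes (red) and 11 pathway lists (blue), with a black bar at each median and a dashed line at the median of all genes passing that filter, -0.06. Medians run from 1.13 for arrest targets to -0.19 for activators and partners.

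The remaining target lists were less shifted than the arrest and apoptosis lists. Of 16 metabolism and stress targets, 10 were higher and the median log2 ratio was 0.27. Of 14 tested, 2 were past the threshold as higher and 1 as lower, against 10.8% and 18.7% of all tested genes. The lower gene was Cyfip2, an actin regulator that is abundant in neurons, at 47.4 and 12.4. The higher ones were Rps27l and Sco2, a copper chaperone of respiration that was named after its values were seen, at 5.06 and 12.2. Sco2 passed the filter only through the E14-Sox2TA/WT library. Of 7 DNA repair targets, 4 were higher with a median of 0.47, and none of 5 tested was past the threshold. The direction of that median turned, to -0.38, over the list genes with TPM ≥ 10 in both libraries. Pcna, the replication clamp, was at 234 and 324. The damage sensors of nucleotide excision repair split, with Ddb2 at 7.2 and 11.2 and Xpc at 27.0 and 14.7. Over the 42 target genes that are not among the 10, 32 were higher with a median of 0.41. Of 35 tested, 8 were past the threshold as higher and 2 as lower, against 10.8% and 18.7% of all tested genes. Among the 8, Eda2r and Sco2 passed the filter only through the E14-Sox2TA/WT library. Over all 18558 genes with TPM ≥ 1 in either library, 47.5% were higher, with a median of -0.06.

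The DREAM complex represses cell cycle genes when p21 is induced. Of 20 such genes, 16 were higher, the median log2 ratio was 0.44, and 2 of 20 passed the threshold as higher, beside 10.8% of all tested genes. These were Mybl2, a cell cycle transcription factor, at a TPM of 14.5 and 54.4 (3.74-fold), and Bub1, a spindle checkpoint kinase, at 21.5 and 44.1 (2.05-fold). Birc5, an abundant member, was at 115 and 173. The CHR element TTTGAA, searched on both strands, was present in the promoter window of 10 of the 16 list genes with a window and in 20.2% of all genes with one.

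Levels per length kept a similar order in both libraries. In the E14 library, Rps27l was highest, followed by Bax, Ddit4, Trp53, Ccng1, Cdkn1a, Mdm2, Mdm4, Bbc3 and Pmaip1. In the E14-Sox2TA/WT library Ddit4 moved from rank 3 to rank 6, and the order of the other genes was the same. Of the neighbours whose ratio was computed, Trp53 and Ccng1, Ccng1 and Cdkn1a, and Mdm2 and Mdm4 differed beyond counting error in both libraries, and Bbc3 and Pmaip1 did so with E14 but not with E14-Sox2TA/WT.

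**Figure D5:**
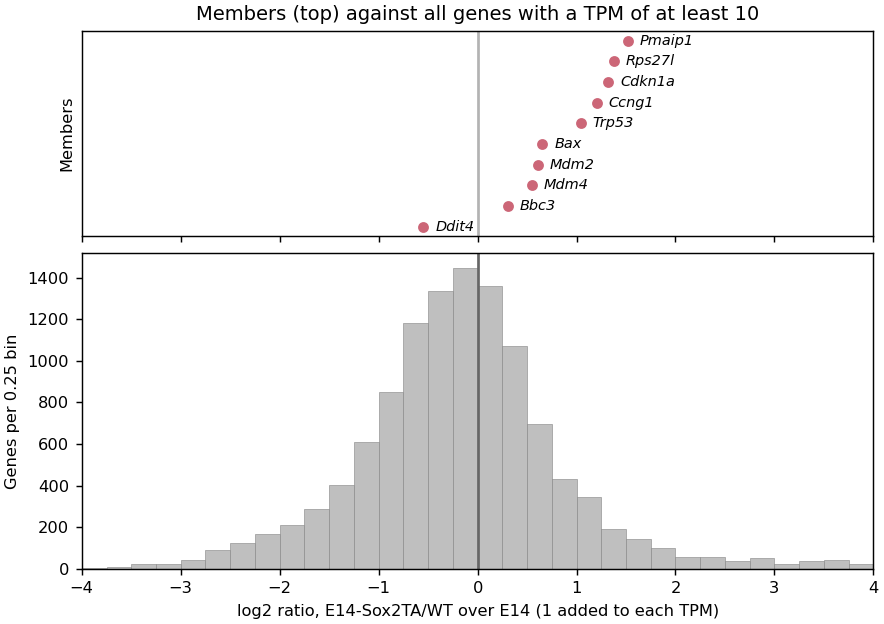
Log2 TPM ratio, with 1 added to each TPM (x axis, shown from -4 to 4), of the 10 genes as red points (top, ordered by value) above the number of genes per bin (bottom) over the 11578 tested genes. Of the points, 9 lie right of 0 and that of Ddit4, at -0.55, lies left of it.

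The count of genes past the threshold was 5 with each other scaling of the values, 6 when centred on genes of like length (with Mdm4), and changed with the fold required. Apart from centring on like length, each scaling raised the ratios of the 5 genes, so the count could not fall with it. On FPKM, whose ratios are higher because 1 TPM ratio equals 0.871 times the FPKM ratio, the same 5 genes passed, against 13.7% of all genes, and with edgeR's TMM factors 5 passed, against 11.6%. At a fold above 1.5, Mdm2 and Bax joined to make 7 of 10, against 18.2% of all genes. Above 3, only Pmaip1 passed, against 5.73%.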

How the data were processed

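RNA-seq of 1 E14 and 1 E14-Sox2TA/WT teratoma library was used, on the mm10 genome. The submitters' processing notes list bcl2fastq 2.20.0, Trimmomatic, HISAT2 2.1.0 and StringTie 2.1.3b, with hg19 beside mm10. The authors deposited read counts per gene as whole numbers. They also deposited FPKM, scaled by transcript length and depth, and deposited TPM, scaled to a fixed sum per library. Of 45777 gene IDs, 45679 matched a RefSeq table of GRCm38, which gave positions. No column was left unmatched.

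TPM ratios were taken between the libraries, with 1 added on the log2 scale and 95% Clopper-Pearson intervals. Past the threshold means a fold above 2 with TPM ≥ 10 in either library, after the study's methods. It gave 1253 genes as higher and 2167 as lower, in each direction more than the study reports for the teratomas. Like length means the 500 tested genes nearest in transcript length. The 10 genes, 16 pathway lists and 9 marker lists were chosen with earlier results of these data known. Named were the 10 genes, some relatives, and in each pathway list the highest TPM and the 2 largest log2 ratios among genes with TPM ≥ 10 in either library; for marker lists, the sum and the highest gene. Named after their values were seen, beside those so marked in the text, were Phlda3, Gadd45a, Trp53inp1, Perp, Cdkn1b, Cdkn2b, Cdkn2c and Cdkn2d. So were Bok, Bid, Bcl2a1a, Bcl2a1d, Wrap53 and Rps27rt. Some ratios between genes were added after the values were seen. Shared 50-nt stretches came from GENCODE M21 transcripts. Alternatives covered FPKM, library totals, TMM and median-of-ratios factors, pseudocounts, filters, thresholds and centring. Scripts were tested on simulated data. The tools were R 4.3.3, edgeR 4.0.16, Python 3.11.15, pandas 2.3.3, numpy 2.4.6, matplotlib 3.10.9 and scipy 1.17.1.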

Additional observations from a re-analysis of the deposited data

How the results depend on the processing

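No paired analysis was possible because each group holds 1 library, and for the same reason no library could be left out. Under the alternatives, 91 values were computed for the main results, of which 89 stayed within 1.5 times the count or within the interval of the median, and 2 did not. These were the number of the 10 genes past the threshold as higher, which was 1 at a fold above 3, and the median log2 ratio of the arrest targets, which was 1.33 with counts scaled by library total. Some of the 89 could not have moved. All 10 genes had TPM ≥ 10 in either library and all target list genes TPM ≥ 1. Filters at or below these levels therefore kept the same genes. The intervals of the medians are also wide, such as -0.42 to 0.81 for the metabolism and stress targets. For the DNA repair targets the interval, -0.83 to 0.77, spans the whole list. A filter could thus not move their median out of it. For the 10 genes one by one, 73 of 100 such values lay outside the counting interval and 0 changed sign. Of 117 values of other lists, 13 moved. Over all lists, 21 medians in 6 lists changed sign, the DNA repair targets (-0.38 with TPM ≥ 10 in both libraries) among them. The 32 ratios between genes within a library are the same on FPKM by construction. TPM and FPKM differ by a constant factor within a library, so these ratios are no check. The cause was not tested. Depth limits little for the 10 genes, since the one with the fewest reads, Pmaip1, had 400 in the E14 library. It limits more for some other genes named, such as Cdkn2a with 82 reads there. The spread between tumours is not known.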
